A study of Glycine max with 4 samples.

Results

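The transition zones of soybean chromosomes lie between ends crowded with peaks of an antibody against the GLYMA.06G314400 protein and middles with few such peaks. Of 36297 regions that were peaks in both replicates of a chromatin immunoprecipitation and sequencing (ChIP-seq) experiment, 8071 (22.2%) lay in these zones. A region joined peaks of the 2 replicate lists that overlapped by at least 1 bp, and it was placed by the summit of its replicate 2 peak. The zones run from 20 up to 40% and from 60 up to 80% of the span of a chromosome, which was taken from 0 to the end of its last peak. Chromosome 13 was left out by the rule that defines the zones (1055 regions in its own), and so were the 194 regions on scaffolds. On the 19 chromosomes used, 33504 shared regions remained, with 23871 in the outer zones (the first and last 20% of the span) and 1562 in the middle zone (40 up to 60%).

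The study asked where this protein binds in early maturation stage embryos of Glycine max (cultivar Williams 82), dissected from seeds of 6 to 7 mm. Its 4 libraries are 2 ChIP libraries, made with an antibody against a peptide of the protein, and 2 input libraries of chromatin that was set aside before precipitation, each as 2 biological replicates. All 4 libraries come from this cultivar and stage, and the labels name no treatment or mutation. A peak list of each ChIP library was analysed, with 39821 peaks in replicate 1 and 47716 in replicate 2. The input libraries were not analysed directly, and whether they entered the peak calls is not stated in the sources used here. No library made with a control antibody was analysed, so binding by this protein and other recurrent antibody signal cannot be told apart.

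As background, the peak names carry the word AREB3, a name used for ABA-responsive element binding factors. These are basic leucine zipper (bZIP) proteins that bind DNA at sequences with an ACGT core and act in the response to abscisic acid, a hormone that guides seed maturation. Soybean chromosomes are known for gene-rich arms around a large, gene-poor pericentromeric region rich in repeats, in which recombination is rare. The sources used here do not name the genome build of the lists, and no genome sequence was used, so no motif or gene is assigned to a site below. All positions are those of the lists, counted from 1.

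Site density in the transition zones lay between that of the ends and that of the middles. It was 22.9 ± 9.21 shared regions per Mb (mean ± SD over 19 chromosomes), against 66.7 ± 8.43 in the outer zones and 8.81 ± 3.50 in the middle zone. On every one of the 19 chromosomes the transition zones were sparser than the outer zones and denser than the middle zone. The median ratio to the outer zones was 0.339 (95% interval 0.249 to 0.468), and the ratio to the middle zone was 2.71 (2.17 to 3.39). Both differences gave p = 3.81e-06 in an exact sign test over chromosomes, two-sided, the smallest value that 19 chromosomes allow, and 2.42e-05 after Benjamini-Hochberg adjustment over the 19 tests of this report. Chromosomes are parts of the same libraries, so these tests measure how uniform the pattern is along the genome and not the spread between embryos. How well reads could be placed in each zone was not tested.

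Each replicate list gave a similar ratio on its own, at different densities. Replicate 1 had 24.6 peaks per Mb in the transition zones and 72.5 in the outer zones, a ratio of 0.340. Replicate 2 had 29.6 and 86.8 peaks per Mb, a ratio of 0.341. Peaks seen in only 1 list thinned out alike, from 5.76 to 2.11 per Mb for replicate 1 (0.367 times) and from 20.2 to 7.06 per Mb for replicate 2 (0.350 times).

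The fall in density went on inside the zones. In steps of 5% of the span from the near end, the mean density was 36.6 ± 13.3 per Mb at 20 to 25%, 24.9 ± 13.8 at 25 to 30%, 17.5 ± 9.74 at 30 to 35% and 12.7 ± 7.53 at 35 to 40% (SD over 19 chromosomes). The inner part of the zones, over 30% from the near end, held 0.510 times as many regions per Mb as the outer part (95% interval 0.353 to 0.647). The inner part was sparser on all 19 chromosomes (two-sided exact sign test, p = 3.81e-06, adjusted p = 2.42e-05). At the limits of the zones, the strip from 19 to 20% of the span held 44.6 regions per Mb and that from 20 to 21% held 38.3, while the strips from 39 to 40% and from 40 to 41% held 8.86 and 9.42. In steps of 5%, the mean went on falling past the inner limit, to 10.2 ± 4.22 per Mb at 40 to 45% and 7.38 ± 3.93 at 45 to 50%.

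**Figure D1:**
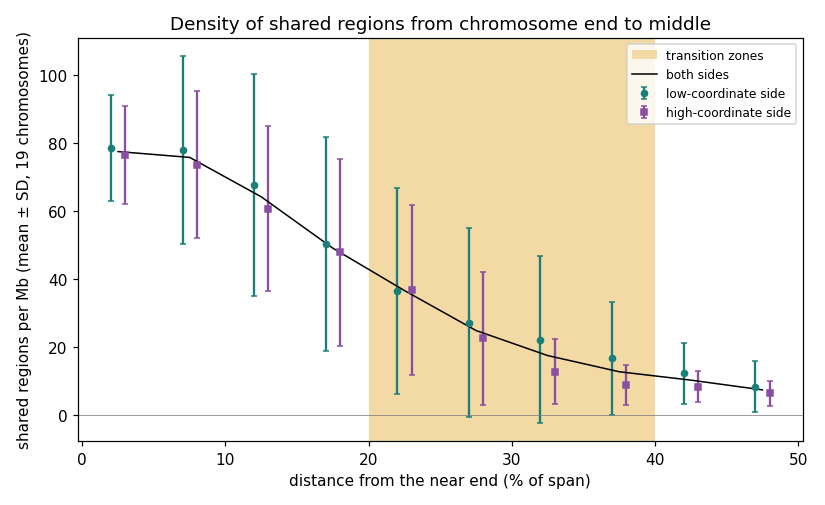
Shared regions per Mb (y axis, mean ± SD over 19 chromosomes) against distance from the near chromosome end in percent of the span (x axis, steps of 5%), for the low-coordinate side (circles), the high-coordinate side (squares) and both together (line), with the transition zones shaded. The line drops from 36.6 to 12.7 per Mb across the shaded zone, and in the step from 25 to 30% the low-coordinate side has a mean of 27.1 and an SD of 27.8.

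The mean curve is smooth, while single chromosome sides ranged from abrupt to gradual falls, and some dipped and rose again. Shared summits were counted in bins of 1 Mb from each end to the middle of the span, and the fall of a side was placed at the bin edge that best split the side into a dense outward part, toward the end, and a sparse inward part (highest Poisson likelihood, at least 2 bins in each part). The split was chosen to separate the parts, so their ratio is a description with no test. Of the 38 sides, 23 had their fall inside a transition zone, 15 nearer to the end and 0 farther in than 40%. The fall lay 10.6 ± 3.53 Mb from the end (SD, 38 sides, range 3 to 18), or at 22.5 ± 7.69% of the span. Density was 67.6 ± 16.3 regions per Mb outward of the fall and 11.8 ± 6.49 inward of it.

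**Figure D2:**
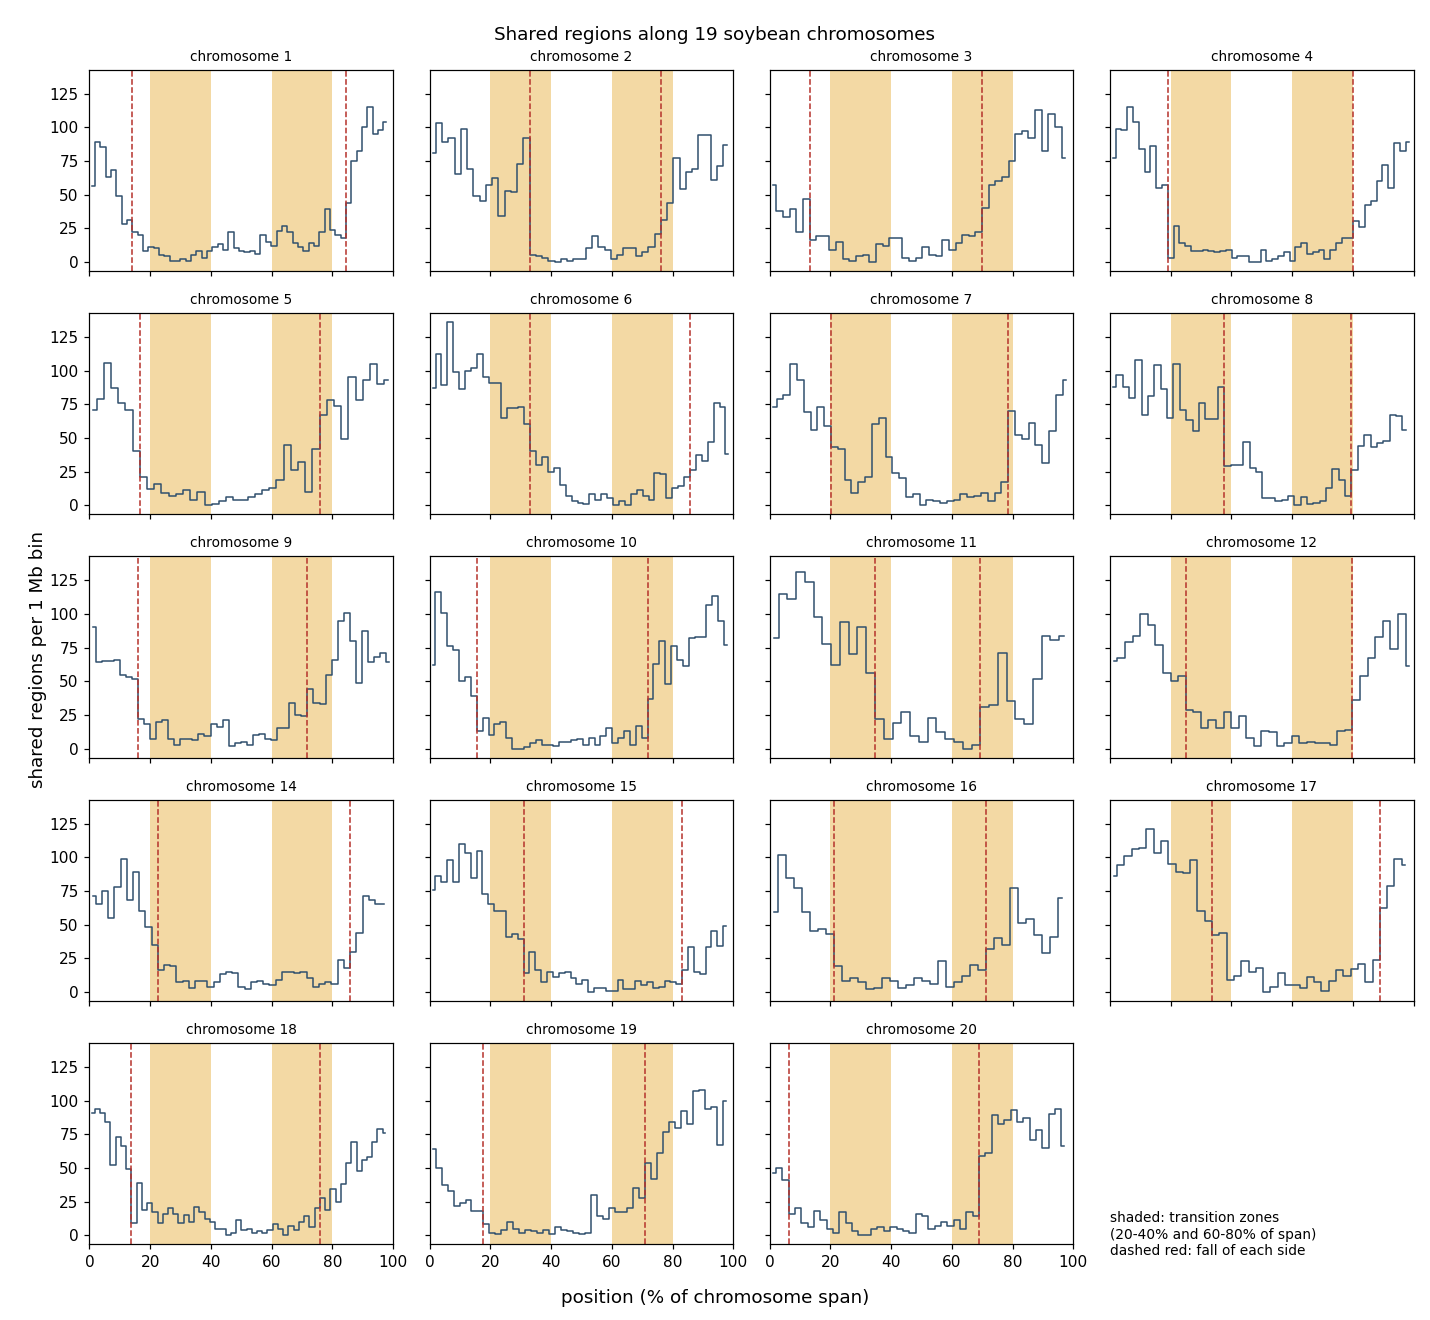
Shared regions in each whole 1 Mb bin (y axis) along each of 19 chromosomes (x axis, percent of the span), with the transition zones shaded and the fall of each side as a dashed line. Counts near the ends reach over 100 per bin on some chromosomes. In the middle many bins hold single digits, though 1 on chromosome 8 holds 47. The fall lies inside a shaded zone on 23 of 38 sides.

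The position of the fall recurred between the replicates. With the peaks of each list alone, 30 of 38 sides had the fall at the same bin edge in both lists, and 34 within 1 Mb. The 4 sides that differed by more were the low side of chromosome 1 (8 Mb in replicate 1, 6 Mb in replicate 2), the high side of chromosome 4 (44 and 42 Mb), the low side of chromosome 15 (16 and 13 Mb) and the high side of chromosome 18 (43 and 46 Mb). The low side is the one that starts at coordinate 0, and the high side is the other.

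Falls differed in size and in width. The largest ratio of outward to inward density was on the low side of chromosome 2 at 16 Mb (32.9% of the span), where the bin outward of the edge held 92 shared regions and the next held 5. Density there was 69.7 per Mb outward and 2.25 inward, a ratio of 31.0, and no inward bin of this side held more than 5. The low side of chromosome 4 followed with a ratio of 10.9 at 10 Mb, from 57 regions in the last dense bin to 3 in the next, with 27 and 14 in the bins after it. The high side of chromosome 7 had a ratio of 10.8 at 35 Mb, where adjacent bins held 70 and 17. On the high side of chromosome 11, with a ratio of 6.79 at 24 Mb, the bins at the edge held 31 and 3.

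The smallest ratios belonged to low sides. On chromosome 8 the low side fell at 18 Mb by a ratio of 2.56, from 80.6 to 31.5 per Mb, and its inward bins still held 25 to 47 regions each. The low side of chromosome 7 had a ratio of 2.69 at 9 Mb, with 59 and 43 regions in the bins around the edge. Its counts sank to 9 in the bin from 12 to 13 Mb and rose again to 65 from 16 to 17 Mb. The low side of chromosome 12 had a ratio of 3.96 at 10 Mb, with 54 and 29. Smoothed over 3 bins, density went from 75 to 25% of the outward level within a median of 5 Mb (range 2 to 8) on the 37 sides that reached the lower level. The smoothing itself widens an abrupt fall, and its part in these widths was not tested. The 2 sides at 2 Mb were the low side of chromosome 2 and the high side of chromosome 11, which was named after its values were seen.

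The fall nearest to an end was on the low side of chromosome 20, at 3 Mb (6.26% of the span). Next came the high side of chromosome 17, 4.61 Mb from its end (11.1%), and the low side of chromosome 3 at 6 Mb (13.1%). The falls farthest from an end were on the low side of chromosome 8 at 37.7% of the span, of chromosome 11 at 34.7% and of chromosome 17 at 33.6%. Chromosome 17 is thus among the extremes on both sides, with dense sites on one arm over 14 Mb and on the other over 4.61 Mb.

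**Figure D3:**
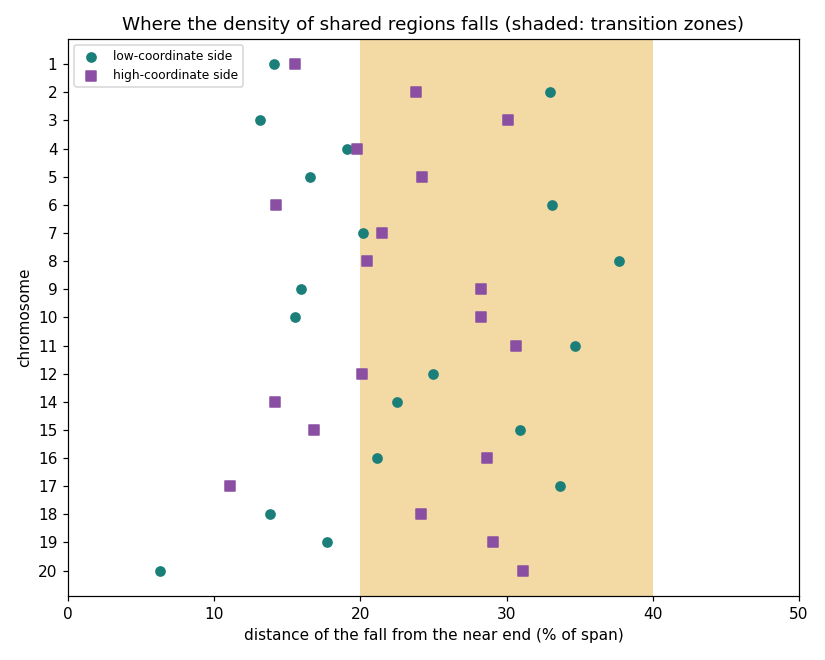
Distance of the fall from the near chromosome end (x axis, percent of the span) for the low-coordinate side (circles) and the high-coordinate side (squares) of each chromosome (y axis), with the transition zones shaded. Both falls lie in the shaded range on 6 chromosomes, 1 of them on 11 and neither on 2, which are chromosomes 1 and 4.

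Between the falls lay 1 sparse stretch per chromosome, 26.4 ± 6.32 Mb long (SD, 19 chromosomes) or 55.0 ± 8.34% of the span. With 1 split per side, every chromosome has 1 such stretch by construction. Together these stretches took up 55.5% of the summed span and held 5495 shared regions (16.4%). The shortest ran from 12 to 24 Mb on chromosome 11 and the longest from 8 to 48 Mb on chromosome 1. Their centre lay at 49.8 ± 6.59% of the span, from 37.6% on chromosome 20 to 61.3% on chromosome 17.

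Most chromosomes had a dense and a sparse transition zone. On 16 of 19 chromosomes the denser zone held over 2 times as many regions per Mb as the sparser, with a median ratio of 4.10 and a range of 1.06 to 10.6. On chromosome 19 the low side had 3.74 regions per Mb and the high side 39.8. On chromosome 20 they had 5.01 and 47.8. Chromosome 17 was the reverse, with 66.3 on the low side and 7.81 on the high side. On some chromosomes the sparser zone alone was below the middle zone, as on chromosome 19 (3.74 against 8.57 per Mb). On others it stayed above the middle zone, as on chromosome 4 (9.84 against 3.34 per Mb). The sides of chromosomes 4, 14 and 18 were close to each other, at 10.4 and 9.84 per Mb, 12.8 and 10.1 per Mb, and 15.5 and 11.7 per Mb.

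This imbalance was larger than that of the outer zones of the same chromosomes. The ratio of denser to sparser side had a median of 4.10 in the transition zones and 1.48 in the outer zones, and it was larger in the transition zones on 17 of 19 chromosomes (two-sided exact sign test, p = 0.000729, adjusted p = 0.00346). Such a ratio is at least 1 by construction and grows with counting noise at low counts. The sparsest transition side held 38 regions, and the part of counting noise was not tested. Neither direction prevailed: the low side was denser on 11 chromosomes and the high side on 8 (two-sided exact sign test, p = 0.648, adjusted p = 0.820), with a median ratio of low to high of 1.26 (95% interval 0.240 to 4.10). On 16 of 19 chromosomes the denser zone was on the side whose fall lay farther from its end. A fall farther in leaves more dense length inside the zone, and both come from the same summits, so this agreement is largely built in.

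**Figure D4:**
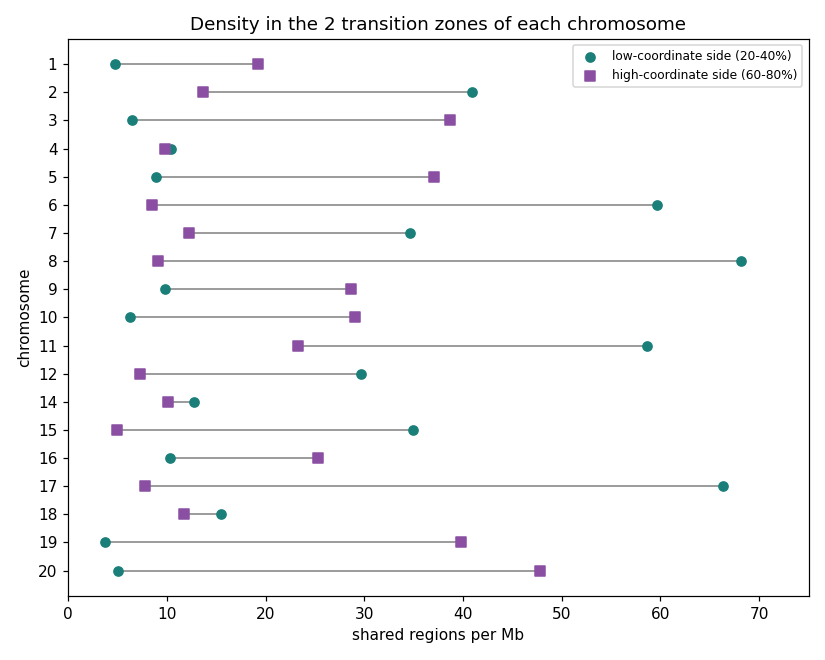
Shared regions per Mb (x axis) in the low-coordinate (circles) and high-coordinate (squares) transition zone of each chromosome (y axis), joined by a line. The pairs of chromosomes 4, 14 and 18 nearly coincide, while those of chromosomes 6, 8 and 17 lie more than 50 regions per Mb apart.

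A transition zone was often a mixture of dense and sparse stretches. The stretches of these zones outward of the fall made up 21.7% of their length (78.4 of 361 Mb) and held 4748 of the 8071 regions (58.8%), at 60.6 per Mb. Those inward held 3323 regions at 11.8 per Mb. The fall was placed with the same summits, so this contrast is partly built in. Among the 324 whole 1 Mb bins in the zones, the median was 13 regions (interquartile range 6 to 30). The 50 bins (15.4%) with 50 or more regions held 48.8% of the regions counted in whole bins, while 77 bins (23.8%) held 5 or fewer and 10 held none.

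The fullest bin of the zones, from 10 to 11 Mb on chromosome 8, held 105 shared regions, with 116 peaks in replicate 1 and 131 in replicate 2. Bins with 98 regions on chromosome 17 (11 to 12 Mb), 94 on chromosome 11 (8 to 9 Mb), 92 on chromosome 2 (15 to 16 Mb) and 91 on chromosome 6 (11 to 12 Mb) followed. All 5 were outward of the fall of a low side, and the chromosome 2 bin lay directly against it. None of the 501 bins inward of a fall reached the mean outward level of its side, which the choice of the split favours. The 2 that came nearest were neighbours on chromosome 7, singled out after their values were seen. The bins from 15 to 16 and from 16 to 17 Mb there held 60 and 65 shared regions, 78.4 and 84.9% of the outward mean of 76.6.

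Spacing between sites widened with the fall. Neighbouring shared summits lay a median of 12.4 kb apart in the transition zones (interquartile range 3.76 to 36.4), 7.84 kb in the outer zones and 33.7 kb in the middle zone. Gaps over 100 kb made up 10.0% of the 8033 neighbour distances in the transition zones, against 1.09% in the outer zones and 28.1% in the middle. Close pairs within 1000 bp were 5.93, 6.79 and 5.64% of the distances. The interquartile range thus stretched mostly at its upper end.

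The 5 widest gaps inside the transition zones were 1.56 to 2.90 Mb long. On chromosome 10 no shared summit lay between 13791703 and 16687157, and 1 unshared peak of replicate 1 was inside. On chromosome 20 the gap from 13737218 to 16567013 held 1 unshared peak of replicate 2. The gap on chromosome 18 from 36236445 to 38183204 held 3 unshared peaks, all of replicate 2. The chromosome 6 gap, 30990903 to 32862092, held no peak of either list, and neither did the chromosome 3 gap, 14642570 to 16207376.

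Shared regions in the transition zones were close in fold enrichment to those elsewhere, although they were fewer. Only regions called as peaks in both lists were compared, so weaker sites were left out in every zone. For the 8071 regions, the authors' fold enrichment (summit pileup of ChIP fragments relative to local background) was 7.15 at the median of replicate 1, with quartiles of 5.10 and 11.2. In replicate 2 it was 6.35, with quartiles of 4.55 and 9.72. In the outer zones the medians were 7.11 and 6.31, and in the middle zone 7.30 and 6.50. Over chromosomes, the ratio of the transition median to the outer median was 1.01 in replicate 1 (95% interval 0.980 to 1.03) and 1.00 in replicate 2 (0.964 to 1.04). The transition median was higher on 10 of 19 chromosomes in both replicates (two-sided exact sign test, p = 1 and adjusted p = 1 in both).

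The comparison with the middle zone gave a ratio of 0.999 in replicate 1 (95% interval 0.935 to 1.04) and 0.992 in replicate 2 (0.899 to 1.06). The transition median was higher on 9 and 7 of 19 chromosomes (two-sided exact sign test, p = 1 and 0.359, adjusted p = 1 and 0.569). Differences inside these intervals cannot be told from equality with 19 chromosomes. Fold enrichment of at least 10 in both replicates was reached by 1704 transition regions (21.1%), by 20.7% of outer regions and by 20.5% of middle regions.

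**Figure D5:**
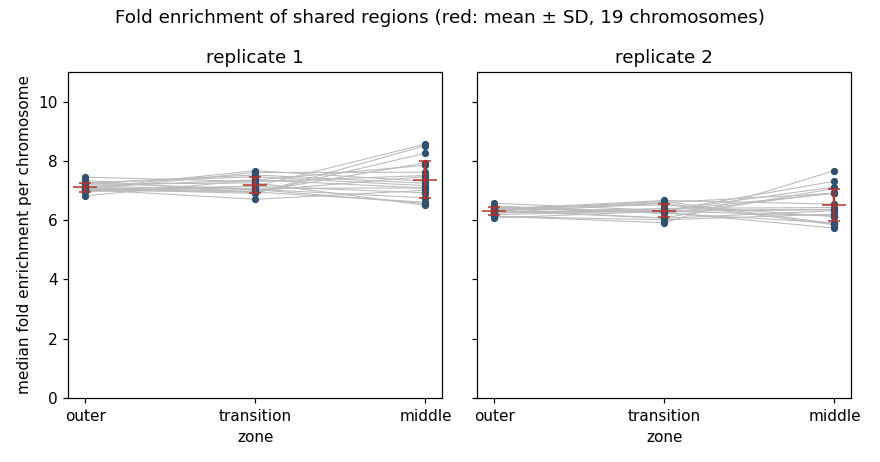
Median fold enrichment of shared regions per chromosome (y axis) in the outer, transition and middle zones (x axis) for replicate 1 (left) and replicate 2 (right), with grey lines joining the zones of 1 chromosome and the mean ± SD over 19 chromosomes in red. Transition medians lie between 6.70 and 7.67 in replicate 1 and between 5.91 and 6.66 in replicate 2, inside the range of the middle zone, where counts are lower and the spread is larger.

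Strength was also compared within the zones, between the parts on either side of the fall. The median enrichment outward of the fall was 7.16-fold in replicate 1 and 6.33-fold in replicate 2, and inward of it the medians were 7.14 and 6.37. On the 17 chromosomes with at least 20 regions in each part, the inward to outward ratio was 0.994 in replicate 1 (95% interval 0.966 to 1.04) and 1.04 in replicate 2 (0.970 to 1.08). The inward median was higher on 7 and 10 of 17 chromosomes (two-sided exact sign test, p = 0.629 and adjusted p = 0.820 in both).

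The share of well-ranked regions was also compared. A region took the lower of its standings in the 2 lists, each ordered by peak p, and the best 25% of all 33504 shared regions were compared between zones. Of the transition regions, 2051 (25.4%, exact 95% interval 24.5 to 26.4) were among them, against 5957 of 23871 outer regions (24.4 to 25.5%) and 24.1% of middle regions (22.0 to 26.3). The intervals cover counting error only. Over chromosomes the difference from the outer zones was 0.335 percentage points (95% interval -1.09 to 2.44), with a higher share on 12 of 19 (two-sided exact sign test, p = 0.359, adjusted p = 0.569).

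Peak shape and pileup differed little. The median width in replicate 2 was 374 bp in the transition zones and 376 bp in the outer zones, a difference of -2 bp over chromosomes (95% interval -6.5 to 6.5, two-sided exact sign test, p = 0.359, adjusted p = 0.569). The median number of ChIP fragments at the summit was 34 in replicate 1 in both kinds of zone, and 60 against 61 in replicate 2. Over chromosomes the ratios had 95% intervals of 0.970 to 1.03 and 0.938 to 1.03 (two-sided exact sign tests, p = 0.302 and 0.815, adjusted p = 0.569 and 0.967).

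The local background at the summit was slightly lower in the transition zones. This background, in fragments, was recovered from the fold enrichment and p of each peak. Its median was 3.72 fragments against 3.82 in the outer zones in replicate 1, and 8.36 against 8.74 in replicate 2. The median over chromosomes was 0.972 times the outer value in replicate 1, lower on 14 and higher on 1 of 15 untied chromosomes (two-sided exact sign test, p = 0.000977, adjusted p = 0.00371). In replicate 2 it was 0.978 times, lower on 13 and higher on 2 (two-sided exact sign test, p = 0.00739, adjusted p = 0.0234). With a stricter q of 1e-10 or less, the replicate 2 difference gave an exact sign test p of 0.143. The part of this background in the fold enrichment and in the density of sites was not tested.

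Most peaks in the transition zones were found again in the other replicate. Over the 19 chromosomes, 91.9% of replicate 1 peaks and 76.6% of replicate 2 peaks overlapped a peak of the other list. In the transition zones the share for replicate 1 was 91.4% of 8894 peaks, with an exact 95% interval of 90.8 to 92.0. For replicate 2 it was 76.1% of 10672 peaks, with one of 75.3 to 76.9, so both are near that background. The difference from the outer zones over chromosomes was -0.880 percentage points for replicate 1 (95% interval -1.83 to 0.128) and -1.05 for replicate 2 (-2.46 to 1.43), with lower shares on 13 and 12 of 19 chromosomes (two-sided exact sign test, p = 0.167 and 0.359, adjusted p = 0.453 and 0.569). Summits of the replicates lay a median of 22 bp apart in the transition regions (interquartile range 10 to 41), and 98.6% of these regions had 1 peak in each list. Between the replicates, fold enrichment had a Spearman correlation of 0.825 across the 8071 regions, which share their 2 libraries and were required to be peaks in both.

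The strongest regions of the zones included 8 on low sides among the best 10, where 55.2% of all 8071 lay on low sides. With 10 regions nothing is read from this count. The best by rank lay on chromosome 8 from 16773517 to 16774532, at 35.1% of the span, with 294 fragments at the summit in replicate 1 and 345 in replicate 2. Fold enrichment there was 64.6 and 31.2. Next was a region on chromosome 2 from 11676047 to 11677183, at 24.0% of the span, with pileups of 254 and 330 fragments and fold enrichment of 62.7 and 33.9.

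Chromosome 17 held 2 of the 10 best. The stronger, from 12565279 to 12566062, was enriched 56.7-fold in replicate 1 and 28.7-fold in replicate 2. The other, from 12028338 to 12029500, reached 41.5-fold and 25.5-fold. The region with the highest pileups among the 10 was on chromosome 16 from 13050093 to 13051202, with 322 and 372 fragments and 57.6-fold and 22.5-fold enrichment. On chromosome 3 the region from 36005746 to 36006411, at 78.7% of the span, reached 49.1-fold and 26.4-fold.

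The other 4 of the best 10 were inward of the fall of their side, as was the chromosome 16 region. Chromosome 6 had one spanning 19160331 to 19161033, at 42.5-fold and 29.0-fold. Chromosome 18 had a pair, one spanning 19420946 to 19421651 at 50.9-fold and 35.7-fold, and one spanning 11966500 to 11967148 at 48.7-fold and 25.9-fold. Chromosome 12 had the last, spanning 30739372 to 30740057, at 39.7-fold and 19.4-fold. The stretches inward of a fall held 5 of the 10 best regions and 41.2% of all 8071, so that count is near the share of all regions. In all 10, the summits of the replicates lay at most 20 bp apart.

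A few regions of the zones sat on a high background. Of the 8071, 10 had a background over 20 fragments in at least 1 replicate. The highest was on chromosome 10 from 17198710 to 17198998, with a background of 92.6 fragments in replicate 1 and 203.7 in replicate 2. Its fold enrichment, 1.59 and 1.42, was the lowest of all regions in the zones in both replicates. The second was on chromosome 15 from 14303610 to 14303988, with backgrounds of 23.5 and 48.7 fragments and fold enrichment of 3.06 and 2.75. In the other 8 the background passed 20 fragments in replicate 2 only, where the lowest background was also higher, 6.36 fragments against 3.00.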

How the data were processed

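Per the submitters' processing notes, reads were aligned with Bowtie 0.12.7 and peaks called with MACS2, with no version. The sample labels name the input libraries as controls, by replicate. Whether and how they were used in the peak calls, the handling of duplicate reads and the genome build were not given in the sources used here. Peaks were called per ChIP library, and the peak names hold a q threshold of 0.01. The deposited lists give each peak a score, a fold enrichment (a ratio), the −log10 p and −log10 q, and the distance to the summit. The deposited score was not used.

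Regions, zones, bins and falls were computed with Python 3.11.15, numpy 2.4.6, pandas 2.3.3 and scipy 1.17.1. Fragments at each summit and the local background were solved from fold (fragments plus 1 over background plus 1) and p (a Poisson upper tail), within 0.001 of the deposited −log10 p. This held for all but 1 peak, which has no such value. The lowest background was 3.00 fragments in replicate 1 and 6.36 in replicate 2. Read totals were not analysed here, so the depth is unknown. The chromosome was the unit of each exact sign test. Background medians within 0.01 fragments counted as ties. Intervals of differences come from the same test and cover at least 95%. Overlaps and pileups were checked on simulated data. Falls were checked only on simulated abrupt steps with Poisson counts, so the placing of gradual falls was not tested.

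Regions named are the 10 best ranked, and sides named are the 3 with the largest and smallest ratio of density and the 3 with the fall nearest to and farthest from an end. Bins named are the 5 fullest and any inward bin at its side's outward mean, and gaps named are the 5 widest. The members, zones and tests were chosen with earlier results of these data known. Of the 19 tests, 6 were added after the lists were read: the imbalance of sides, pileups, the replicate 1 background and inward against outward regions. Without a genome on the build of the lists, sequences were not analysed here.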

Additional observations from a re-analysis of the deposited data

How the results depend on the processing

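Of 105 alternatives for 14 planned results, 96 changed neither the direction nor the call, nor a count by more than 1.5 times. The densities kept their direction and call in every setting, though not on every chromosome. Transition exceeded middle density on 18 of 19 chromosomes with summits within 100 bp, with the span from the first peak and without replicate 1. With chromosome 13 included it did so on 19 of 20, and transition exceeded outer density on 1 of 20. The inner part of the zones was denser on 1 of 19 with q of 1e-10 or less and without replicate 2. Falls inside the transition zones numbered 20 to 24, with 21 for 0.5 Mb bins and 20 for a 3-bin mean under 50% of the outer density. All reversals concerned differences near equality that had not passed the test. For replicate 1 the transition to outer fold ratio was 0.997 with summits within 100 bp and 0.991 without replicate 2, and the transition to middle ratio was 1.02, 1.00, 1.01 and 1.01 with summits within 100 bp, the span from the first peak, chromosome 13 included and without replicate 2. For replicate 2 the transition to outer ratio was 0.999 with chromosome 13 included. The inward to outward ratio in replicate 1 was 1.01 with q of 1e-10 or less and 1.01 without replicate 2. Among the best 25%, the transition share minus the outer share was -0.00791 percentage points without replicate 1 and 0.286 without replicate 2. The replicate 2 background ratio of 0.978 lost its call with q of 1e-10 or less. The cause was not tested. With chromosome 13 included, 1 of its sides had no fall. Peak lists of 2 libraries limit what can be said of other embryos. No paired analysis was possible because no list of an input library was used.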
